A study of Schizosaccharomyces pombe with 2 samples.

Results

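The genes of the proteins of the small ribosomal subunit were examined in the fission yeast Schizosaccharomyces pombe, in a wild-type strain and in one without subtelomeres. The members are all probe sets with a signal above 0 on both arrays whose platform symbol, in lower case and naming 1 gene, starts with rps followed by a digit. The rule found 46 probe sets for 45 genes, out of 2865 named S. pombe genes with a ratio in the series. The current reference annotation holds 55 nuclear genes with such a symbol, and the other 10 were not analysed here. The 45 genes encode 27 different proteins. Of these proteins, 16 were measured through a pair of genes, 1 through 3 genes and 10 through 1 gene.

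The first strain, JP1225, is a wild-type of mating type h-, and the second, ST3479, is the subtelomere-deleted strain called SD5, also h-. Subtelomeres are the regions that adjoin the telomere repeats. Both strains grew exponentially at 32 °C in rich YES medium, with no other treatment in the labels. The labels do not name the chromosome ends that SD5 lacks. With 1 array of polyadenylated RNA per strain there are no replicates and no test, and each difference below describes this pair of arrays. The comparison addresses whether transcripts differ in level in the strain without subtelomeres. For the ribosomal protein genes, which lie away from the chromosome ends, the question is how far such a distant group moved, and whether the copies of each protein's gene moved alike.

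The small, or 40S, subunit of the cytosolic ribosome binds the messenger RNA, scans for the start codon and decodes it. It consists of the 18S ribosomal RNA and a set of proteins, which are arranged in a head, a body and a platform. In S. pombe most of these proteins are encoded by a pair of separate genes whose products are identical or nearly so, and the genes are highly transcribed in growing cells. Their transcription is coordinated with growth by the TORC1 kinase, and their promoters carry a shared element, the HomolD box.

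On the arrays the 45 genes gave close signals in both strains. The wild-type signals ran from 4869.8 to 10536 with a median of 8131, and the SD5 signals from 4501 to 9501 with a median of 7504. Signals are linear intensities as deposited, and a level on 1 probe set cannot be set against that on another. Before any scaling the SD5 signal was the lower in all 45 genes, with log2 ratios of SD5 over wild-type from -0.247 to -0.058. Most S. pombe probe sets were lower in that array too, with a median shift of -0.203 on the log2 scale (0.869-fold), which was subtracted from each ratio. All log2 ratios below are after this centring unless stated otherwise.

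**Figure D1:**
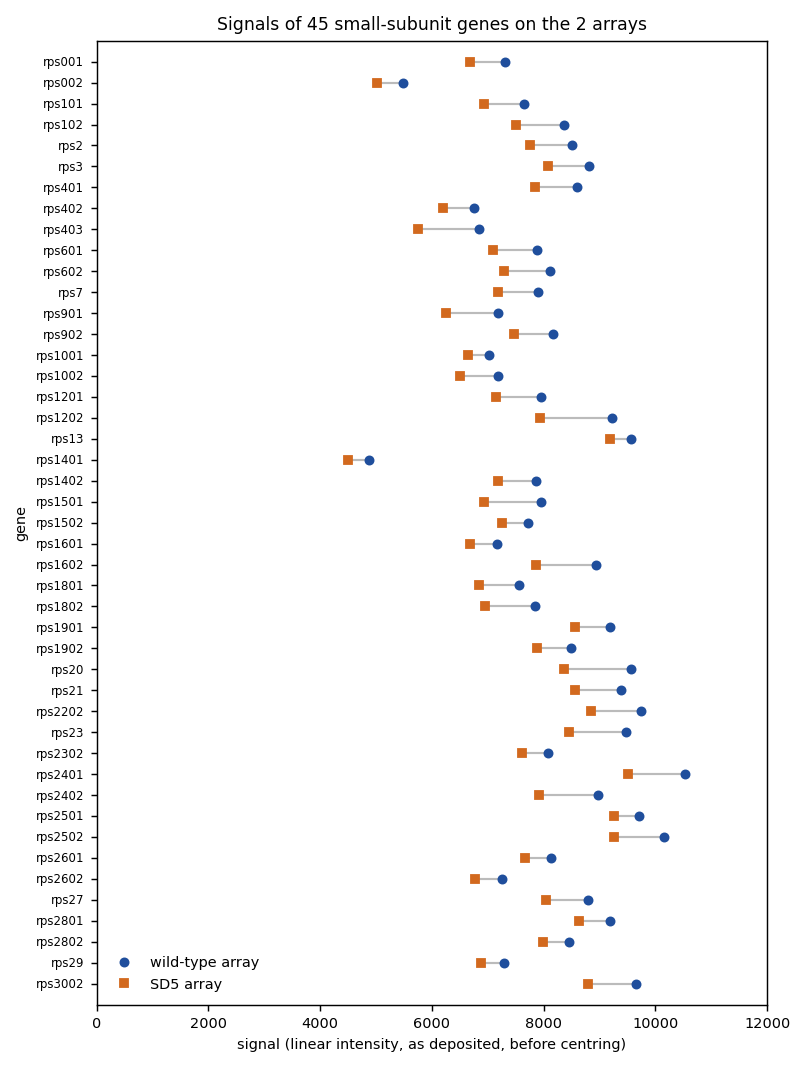
Signals of the 45 small-subunit genes, as deposited, on a linear axis in intensity units. Circles stand for the wild-type array and squares for the SD5 array, with a line joining the values of a gene, and rps3002 is the mean of 2 probe sets. In every gene the SD5 square lies to the left of the wild-type circle, before the array-wide shift of -0.203 is removed.

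After centring, the median log2 ratio of the 45 genes was 0.073, with quartiles of 0.048 and 0.102 and a range from -0.044 to 0.145. In all, 43 genes lay above 0 and 2 below, while 50.4% of all named genes lay above 0. This direction depended on scaling. Without centring all 45 ratios were below 0, as were 2736 of the 2865 named genes. After loess 30 were above 0 (49.8% of all named genes), after quantile normalization 24, and with centring on phage cre controls 4. The median of all named genes was 0.0089 after quantile normalization and -0.123 with centring on cre controls. No member was 2-fold higher or lower, against 0.0349% and 0.244% of all named genes. None reached 1.2-fold in either direction, where 2.55% of named genes were higher and 3.18% lower. Only rps13 was at least 1.1-fold higher and no member was 1.1-fold lower, while 9.84% of named genes were higher and 11.6% lower by that measure. This also depended on scaling: rps13 fell short of 1.1-fold under 6 of 9 alternatives, loess among them. Without centring 18 members were at least 1.1-fold lower, but so was the median named gene, at -0.203. The members' ratios had an SD over genes of 0.041, against 0.247 over all named genes. Over genes of like brightness the SD was closer to that of the members. It was 0.046 over the large-subunit genes. Named genes that encode no cytosolic ribosomal protein and were at least as bright as the dimmest member had 0.060. An SD over genes is not a replicate error, and dim genes, which the members do not include, scatter more.

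The members lay among the brightest probe sets, and the ratio of bright probe sets was above 0 in general. In the wild-type array 9.18% of the S. pombe probe sets were at least as bright as the dimmest member. Brightness was then taken as the mean log2 signal of the 2 arrays. Of the named genes that encode no cytosolic ribosomal protein, 211 were at least as bright as the dimmest member by this measure, and 171 of them (81.0%) had a ratio above 0, with a median of 0.037, and 3.32% were at least 1.1-fold higher. The 6 probe sets for the phage cre RNA, a hybridisation control that no yeast gene supplies, had signals from 7137 to 10707 in the wild-type array, where the members ran from 4869.8 to 10536. Their ratios ran from 0.0010 to 0.197, with a median of 0.123. After loess, which removes the trend of ratio with signal, the members' median was 0.014, with a range from -0.088 to 0.079. The median of the bright genes that encode no ribosomal protein was then -0.0045. The part of signal brightness in the members' shift was not tested otherwise. The brightest S. pombe probe set of the wild-type array had a signal of 11672 and that of SD5 one of 10974, and how far such signals are compressed was not tested.

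**Figure D2:**
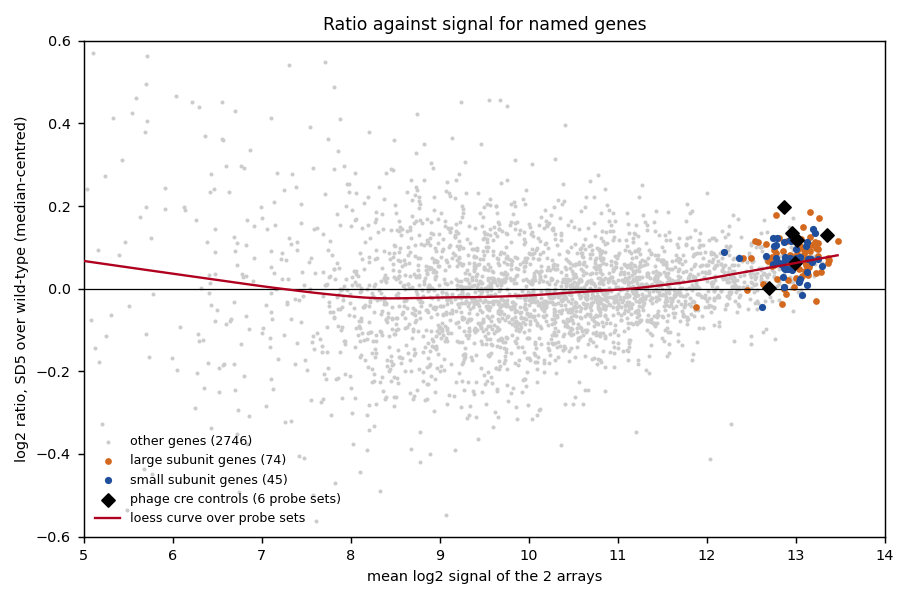
Median-centred log2 ratio of SD5 over wild-type (vertical axis) against the mean log2 signal of the 2 arrays (horizontal axis) for named genes. Points are genes, diamonds are the 6 probe sets of the phage cre control, the line is the loess curve, and 35 genes lie outside the plotted range. At the bright end, along the rise of the curve, 43 of the 45 small-subunit genes sit above 0. The genes rps403 and rps1202 lie below 0 and below the lowest cre probe set (0.0010). Without centring all 45 lie below 0, as do 2736 of the 2865 named genes.

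Within these limits the members of the head were examined first. The head carries the sites where proteins touch the transfer RNAs and the entry and exit of the messenger RNA. Its 19 measured genes, for 11 proteins, had a median log2 ratio of 0.077, against 0.072 for the 26 genes of 16 body and platform proteins, so the medians of both regions lay closer together than the quartiles of either. Of the head genes 18 were above 0 (13 after loess), and of the body and platform genes 25 (17 after loess). Neither difference was tested.

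Rps15, a head protein whose tail reaches toward the decoding site, was the head protein with the widest gap between copies. The gene rps1501 (SPOM_SPCC1393.03) gave 7959.5 on the wild-type array and 6938 on that of SD5, a log2 ratio of 0.0050. Its paralog rps1502 (SPOM_SPAC1071.07C) had 7723 and 7252, a ratio of 0.112. The ratios of the copies thus differed by 0.107. With median centring rps1501 lay at the level of the median named gene and rps1502 above it. After loess rps1501 lay at -0.048 and rps1502 at 0.059. Rps16, whose tail contacts the transfer RNA in the P site, came next with a difference of 0.087. Its gene rps1601 (SPOM_SPBC18H10.14) had 7171 and 6689 (0.103), and rps1602 (SPOM_SPAC664.04C) had 8941 and 7853 (0.016).

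Rps10, Rps25 and Rps12 had copies that differed by about the same amount. Rps10, a head protein that is ubiquitinated on stalled ribosomes in human cells, is encoded by rps1001 (SPOM_SPAC31G5.17C), with 7029 and 6652 (0.124), and rps1002 (SPOM_SPBP22H7.08), with 7185 and 6505 (0.060). Rps25, which is needed for initiation at some viral internal entry sites, is encoded by rps2501 (SPOM_SPBC3D6.15), with 9710.2 and 9259.7 (0.135), and rps2502 (SPOM_SPAC694.05C), with 10145 and 9266 (0.073). In each of these pairs the copy with the higher ratio was the copy numbered 01. Rps12, in the beak of the head, is encoded by rps1201 (SPOM_SPCC962.04), with 7959.8 and 7144 (0.047), and rps1202 (SPOM_SPBC1685.02C), with 9226 and 7935 (-0.014). The copy rps1202 was 1 of the 2 members below 0 after centring, and it was below 0 under the other scalings as well.

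Other head proteins had copies with nearly equal ratios. Rps28, at the exit of the messenger RNA channel, is encoded by rps2801 (SPOM_SPAC25G10.06), with 9177 and 8626 (0.114), and rps2802 (SPOM_SPCC285.15C), with 8444 and 7994 (0.124). Rps19, the protein most often mutated in the human disorder Diamond-Blackfan anaemia, is encoded by rps1901 (SPOM_SPBC21C3.13), with 9184 and 8564 (0.102), and rps1902 (SPOM_SPBC649.02), with 8491 and 7877 (0.095). The copies of these genes differed by 0.010 and 0.0073. For Rps18, which takes part in a bridge to the large subunit, rps1801 (SPOM_SPBC16D10.11C) had 7548 and 6843 (0.062) and rps1802 (SPOM_SPCC1259.01C) had 7844 and 6943 (0.027).

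The head genes measured alone spanned much of the members' range. The gene rps3 (SPOM_SPBC16G5.14C), whose protein lines the messenger RNA entry, had 8809 and 8068 (0.077), close to the median of the members. The zinc-binding protein gene rps29 (SPOM_SPBC1685.09) had 7282 and 6881 (0.122). In contrast rps20 (SPOM_SPCC576.09), whose product is ubiquitinated on stalled ribosomes, had 9566 and 8358 (0.0085), the lowest ratio among the 10 genes measured alone. All 10 lay above 0, up to rps13, and 8 of them stayed above 0 after loess.

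In the body, Rps4 had the widest difference between copies of all 17 proteins measured through several genes. Rps4 binds an early-folding domain of the ribosomal RNA and is encoded by 3 genes. The copy rps403 (SPOM_SPAC959.07) gave 6833 on the wild-type array and 5759 on that of SD5, a log2 ratio of -0.044 and the lowest of all members. The copies rps401 (SPOM_SPBC19F8.08), with 8587 and 7848 (0.073), and rps402 (SPOM_SPBC21B10.10), with 6750.1 and 6188 (0.078), lay close to the members' median and to each other. The difference of 0.121 between rps402 and rps403 corresponds to less than 1.1-fold. The copy rps403 lies 892 protein-coding genes from the nearer end of chromosome I, far from the subtelomeres.

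The proteins of the decoding centre and of the messenger RNA entry also differed between copies. Rps23, which reaches into the decoding centre, is encoded by rps23 (SPOM_SPAC23C11.02C), with 9467 and 8453 (0.040), and rps2302 (SPOM_SPBP4H10.13), with 8079 and 7614 (0.118). Rps9, which bears on the accuracy of decoding, is encoded by rps901 (SPOM_SPAC24H6.07), with 7183 and 6258 (0.0043), and rps902 (SPOM_SPBC29A3.12), with 8159 and 7466 (0.075). The differences were 0.078 and 0.071, both smaller than those of Rps4, Rps15 and Rps16 and larger than the rest. The gene rps2 (SPOM_SPCC576.08C), whose protein is a neighbour of Rps3 at the entry, had 8509 and 7754 (0.069) and was measured through 1 gene.

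By contrast, copies of several outer body proteins were nearly equal. Rps0, on the solvent side and related to the human laminin receptor precursor, is encoded by rps001 (SPOM_SPBC685.06), with 7304 and 6679, and rps002 (SPOM_SPAPJ698.02C), with 5483 and 5012. Both ratios were 0.074 and differed by 0.00053, the least of all 17 proteins with median centring. After loess they differed by 0.015, and the least difference was that of Rps6 (0.0027). Rps6, the target of the S6 kinases downstream of TORC1, is encoded by rps601 (SPOM_SPAC13G6.07C), with 7882 and 7085 (0.049), and rps602 (SPOM_SPAPB1E7.12), with 8107 and 7281 (0.048). These copies differed by 0.0011, although rps601 lies 73 protein-coding genes from an end of chromosome I and rps602 933.

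The platform proteins gave a similar picture. Rps1 is encoded by rps101 (SPOM_SPAC13G6.02C), with 7653 and 6923 (0.059), and rps102 (SPOM_SPAC22H12.04C), with 8371 and 7504 (0.045). Rps14, which takes part in the last processing of the 18S ribosomal RNA precursor in budding yeast, is encoded by rps1401 (SPOM_SPAC3H5.05C), with 4869.8 and 4501 (0.090), and rps1402 (SPOM_SPBC18H10.13), with 7854 and 7188 (0.075). The gene rps1401 was the dimmest member on both arrays. Rps26, at the messenger RNA exit, is encoded by rps2601 (SPOM_SPAC806.03C), with 8131 and 7656 (0.116), and rps2602 (SPOM_SPAC1805.11C), with 7244 and 6765 (0.104). With median centring all of these copies lay above 0, and the copies of a protein differed by at most 0.014. After loess rps102 lay at -0.012 and the copies of Rps14 differed by 0.040.

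The remaining body genes included the highest member, rps13. The gene rps13 (SPOM_SPAC6F6.07C), whose protein takes part in a bridge to the large subunit, had 9562 and 9187 (0.145, or 1.106-fold), the highest ratio of all members as reported, although rps1001 was highest after quantile normalization. Rps24 is encoded by rps2401 (SPOM_SPAC17G6.06), the brightest member with 10536 and 9501 (0.054), and rps2402 (SPOM_SPBC17G9.07), with 8968 and 7912 (0.022), below the lower quartile of the members. The genes rps7 (SPOM_SPAC18G6.14C, 0.068), rps21 (SPOM_SPBC18E5.06, 0.072), rps2202 (SPOM_SPAC5D6.01, 0.064) and rps27 (SPOM_SPBC1685.10, 0.074) lay within 0.01 of the members' median. The gene rps3002 (SPOM_SPBC19G7.03C), for Rps30, was the only member with 2 probe sets. These had 9075 and 8341 (0.082) and 10213 and 9257 (0.061), so they differed by 0.020, and the name of the brighter marks its probes as able to match more than 1 gene.

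**Figure D3:**
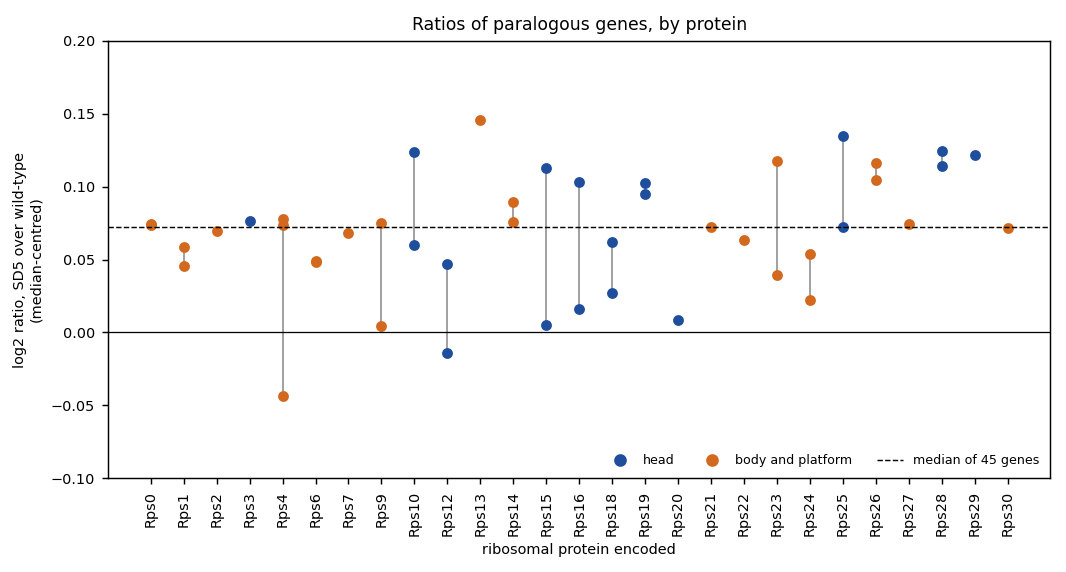
Median-centred log2 ratio of SD5 over wild-type for each small-subunit gene, arranged by the protein it encodes, with head proteins in blue and body and platform proteins in orange. Each point is 1 gene, grey lines join paralogs, and the dashed line marks the median of 0.073. Rps4 and Rps15 have the longest lines, and only rps403 and rps1202 lie below 0. Without centring all 45 genes lie below 0, as do 2736 of the 2865 named genes, and after loess 15 members do.

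Across the 17 proteins measured through several genes, copies differed by a median of 0.034, from 0.00053 for Rps0 to 0.121 for Rps4 (from 0.0027 to 0.120 after loess). In 9 of the proteins the copies differed by under 0.05 and in 2, Rps4 and Rps15, by over 0.1. Between genes of different proteins the median absolute difference over 971 pairs was 0.041, against 0.034 over the 19 pairs of paralogs, a gap of under 0.01. These pairs share genes and the difference was not tested. For scale, 6 named genes were measured by 2 probe sets each at signals over 1000. The probe sets of 1 gene differed by a median of 0.020 and by up to 0.148, for the histone H4 gene hhf1. No paralog difference exceeded that highest value, which came from hhf1 alone, and 10 of 17 exceeded that median. The next highest value was 0.051, for hhf3, and several paralog differences, those of Rps4 and Rps15 among them, were larger. With 1 array per strain, a difference of this size between copies cannot be told from the spread between probe sets.

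The copies' place in the genome was set beside their ratios. In 13 of the 17 proteins the copies lie on different chromosomes, and they differed there by a median of 0.062. In the 4 proteins whose copies share a chromosome, Rps1, Rps6, Rps19 and Rps26, the differences ran from 0.0011 to 0.013 with a median of 0.0097. The gap between these groups rests on few proteins and was not tested. Rps4 was placed among the 13 through rps403 on chromosome I, although rps401 and rps402 share chromosome II. Copies on different chromosomes differed by under 0.05 in 5 proteins, Rps0, Rps14, Rps18, Rps24 and Rps28, so near-equal copies were also found there. The 20 members on chromosome I had a median ratio of 0.066, the 19 on chromosome II 0.075 and the 6 on chromosome III 0.037. The values on chromosome III ran from 0.0050 for rps1501 to 0.124 for rps2802. The 3 pairs of members that are adjacent in the reference annotation differed by 0.061 (rps2 and rps20), 0.047 (rps27 and rps29) and 0.027 (rps1402 and rps1601), which is not less than the median over pairs of paralogs in 2 of the 3.

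No member lies next to a chromosome end. The nearest were rps101, 68 protein-coding genes from an end of chromosome I, rps601 with 73 and rps2601 with 93, and the other 42 were more than 100 genes away. The ratios of these 3 genes were 0.059, 0.049 and 0.116, inside the range of the other members.

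Probe sets that the platform gives to a pair of small-subunit genes lay outside the rule. The probe set shared by rps2201 and rps2202 gave 7879 and 6969.9 (0.026), while that of rps2202 alone had 0.064. The pair of probe sets shared by rps3001 and rps3002 had 9182 and 8185 (0.037) and 8473 and 7542 (0.035). These values lay below both of those of rps3002 alone, which were 0.061 and 0.082. Copies of a ribosomal protein gene can be nearly identical in their coding sequence. How much of a signal comes from the other copy was not tested, because probe sequences were not used here.

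Genes of 40S components outside the naming rule and of other parts of the pathway were set beside the members. The gene cpc2, for the RACK1 scaffold on the head, had 7777 and 7088 (0.069). The gene ubi3, which encodes ubiquitin fused to a small-subunit protein, had 10810.4 and 10414 (0.149) on 1 probe set and 8355 and 7973 (0.136) on the other. The mean ratio of ubi3, 0.142, and that of cpc2 lay inside the range of the members. The 74 large-subunit genes had a median log2 ratio of 0.070, with a range from -0.045 to 0.186. Of these, 68 (91.9%) were above 0, against 50.4% of all named genes. The medians of both subunits differed by 0.0030, and no more than 0.0041 under any processing tried. The direction of the large-subunit median changed with scaling as that of the small subunit did, to -0.134 without centring and -0.054 with centring on cre controls.

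Mitochondrial ribosomal protein genes lay on both sides of 0. The list held genes named mrps, rsm or mrp, of which mrp7 and mrp20 belong to the large subunit in budding yeast. Of its 21 genes 11 (52.4%) were above 0 and 10 below, close to the 50.4% of all named genes above 0. Without centring 19 were below 0, as were 2736 of the 2865 named genes. The 21 genes had a median of 0.012 and a range from -0.165 for mrp17 to 0.253 for rsm27. Their wild-type signals, from 484 to 4963, were lower than those of most members, and the difference from the members was not tested.

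**Figure D4:**
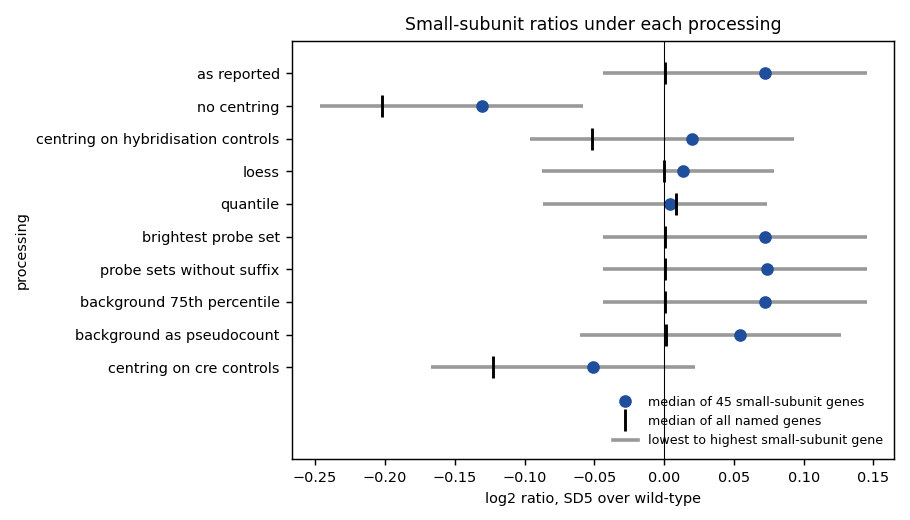
Log2 ratio of SD5 over wild-type (horizontal axis) of the 45 small-subunit genes under each processing (vertical axis). Circles are their medians, grey bars run from the lowest to the highest member, and black ticks are medians of all named genes. The members' median moves from 0.073 as reported to -0.131 without centring and -0.051 with centring on cre controls. A change of centring moves every gene by the same value and cannot change the width of the grey bar. Under the other settings that width stays about the same.

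Of 16 genes that control ribosomal protein genes or assemble the small subunit, 7 were measured. All 7 were listed for control, and no assembly gene was among them. The kinase gene tor2, the catalytic subunit of TORC1, had 601 and 464 (-0.170), and mip1, its raptor subunit, had 936 and 687 (-0.243). Both were at least 1.1-fold lower, as were 11.6% of all named genes. The S6 kinase gene psk1 had 1198 and 1122 (0.108), and the related kinase genes sck1 and sck2 had ratios of -0.120 and -0.0100. The forkhead factor gene fhl1, known from budding yeast as a regulator of these genes, had a ratio of 0.036. The gene rrn7, whose product binds the HomolD box, had 1315 and 1286 (0.170), the highest of the 7 and at least 1.1-fold higher, as were 9.84% of all named genes. After centring no gene of this list was 1.2-fold higher or lower and 3 of the 7 were above 0, as were 50.4% of all named genes. Without centring all 7 were below 0, down to -0.447 for mip1, as were 2736 of the 2865 named genes. Each of the 7 was measured by 1 probe set. The other 9 genes of the list were not analysed here.

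The labelled RNA was compared between arrays through control probe sets along yeast mRNAs. The log2 ratio at the 3′ part minus that at the 5′ part was 0.101 for actin, 0.115 for GPD3, 0.047 for TFIID and -0.072 for RIP1. In size these differences were all above the median difference between paralogs, 0.034, and below the highest, 0.121. The part of RNA integrity in the members' ratios was not tested. The 3 control probe sets of the 18S ribosomal RNA, the RNA of the small subunit that remains after poly(A) selection, had ratios from -0.131 to -0.087. Their level reflects how much ribosomal RNA was carried through the selection as well as the RNA in the cells, and these cannot be told apart.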

How the data were processed

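Polyadenylated RNA of each strain was labelled with the GeneChip 3′ IVT Express kit, per the labels' protocols. The authors deposited 1 linear intensity value per probe set and array. The submitters' processing notes name GCOS 1.4, with no role, and how probes were summarised and scaled was not stated. Of 10928 rows, 5748 had no signal above 0 on at least 1 of the arrays and were left out, and 181 others were control or reporter probe sets. The median S. pombe signal was 1168 (wild-type) and 998 (SD5).

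Genes were named through the platform's table, matched by gene identifier to the reference annotation ASM294v3, which also gave the order of genes. Signals were floored at a background (17.7 for wild-type, 26.6 for SD5), taken at the 95th percentile of 79 control and reporter probe sets with no target in S. pombe. The log2 ratios were centred on the median over S. pombe probe sets above background, and averaged over the probe sets of a gene. Folds of 2, 1.2 and 1.1 were limits of size. Values were given for the extremes of ratio and of paralog difference, for genes measured alone and for listed control genes. All other members were given too. Members and lists were chosen with earlier results of these data known. The planned motif search was not made, since promoter sequences were not used here.

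Alternatives were no centring, centring on hybridisation or cre controls, loess (span 0.4), quantile normalization, the background at the 75th percentile or as a pseudocount, the brightest probe set, and probe sets without a suffix. The procedure was tested on simulated data with flat noise and no trend of ratio with signal. That test therefore does not cover the trend seen on these arrays. Python 3.11.15, numpy 2.4.6, pandas 2.3.3 and statsmodels 0.14.6 were used. The number of arrays limits the precision.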

Additional observations from a re-analysis of the deposited data

How the results depend on the processing

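Scaling decided the direction of the small-subunit median, and the widths between genes depended on it little. The median log2 ratio of the 45 genes was -0.131 without centring and -0.051 with centring on cre controls, and it was 0.020 with centring on hybridisation controls, 0.014 after loess and 0.0042 after quantile normalization. The large-subunit median was -0.134, -0.054, 0.017, 0.0096 and 0.0024 under the same settings. Of the 45 genes, 0 were above 0 without centring, 4 with centring on cre controls and 24 after quantile normalization. Without centring 2736 of the 2865 named genes were below 0 too. The median of all named genes was -0.123 with centring on cre controls and 0.0089 after quantile normalization. It was -0.052 with centring on hybridisation controls and -0.00042 after loess. The small-subunit median lay above that of all named genes under these settings and without centring, except after quantile normalization, where it lay below. The count at least 1.1-fold higher, 1 as reported, was 0 without centring, with centring on hybridisation or cre controls, after loess, after quantile normalization and with the background as a pseudocount. The count at least 1.1-fold lower, 0 as reported, was 18 without centring and 2 with centring on cre controls. Without centring the median named gene was also at least 1.1-fold lower, at -0.203. With centring on cre controls the median named gene was at -0.123, so named genes in general were shifted down there too. The share of all named genes at least 1.1-fold lower was not counted under these settings. No gene reached 1.2-fold under any of the 9 alternatives. The median difference between paralogs stayed between 0.034 and 0.046, and 2 proteins exceeded 0.1 in each. A change of centring moves every gene by the same value, so it cannot alter these differences. Nor can the choice of probe set, since only rps3002 had 2, or a background below every member's signal. Only loess, quantile normalization and the pseudocount could change them. Of the 12 genes with the lowest and highest ratios, all moved by more than the SD over members under the 5 changes of scaling. None did under the other 4 alternatives. These genes have 1 probe set each, far above background, and centring moves them all alike. The counts therefore follow largely from the settings. That SD is a spread between genes and served only as a limit of size. It is not a replicate error, which 1 array per strain cannot give. Centring on cre controls and the setting of bright genes beside the members were chosen after seeing the data. No paired analysis was possible because each strain has 1 array, so no leave-out was possible either.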
